A study of Danio rerio with 6 samples.

Results

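Cysteine tRNA with the anticodon GCA, Cys-GCA, was followed through the first day of zebrafish life. It comprised all rows of the table of cytoplasmic tRNA reads with the amino acid label Cys, which were 42 of the 3021 read sequences listed, all under the anticodon GCA. It was chosen by the measured RPM of its read sequences, since earlier results of these data had shown their balance to differ between stages. RNA came from wild-type fish of the TU strain and was sequenced in 1 library per stage. The 6 stages ran from the mature egg through 1cell, 256cell and sphere to shield and, at 24 hours, 24hpf. Each library was made from a pool of about 50 to 100 eggs or whole embryos, and all libraries had the same size selection, deacylation, end repair and ALKB demethylase treatment. As background, the embryo begins to transcribe its genome broadly after 256cell, so that egg, 1cell and 256cell form the earlier stages here and the other 3 the later ones. The tables hold no other markers of stage, so the stages are as labelled.

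A tRNA carries its amino acid at the 3' end, on the bases CCA, which vertebrate cells add after transcription. Cys-GCA delivers cysteine at the codons UGC and UGU, and its body folds into an acceptor stem, a D arm, an anticodon arm and a T arm. Vertebrate genomes hold many copies of most tRNA genes. Copies with the same anticodon and different bodies are called isodecoders, and they can be told apart only by such body differences.

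The sequences shown here are the leading reads of the 6 commonest families that hold the cysteine anticodon, because they differ at just a pair of places and carry the change in balance described later. A family joins reads that overlap exactly over at least 50 nt. Its reads differ in where they start, and in the T-type family with a D loop T 1 of the 7 also has a further substitution, T68C. Reads are written as DNA, 5' to 3'. Capitals mark the variable D loop base, the anticodon and the variable T stem base, and no D loop capital is given where that base is missing. The first 3 share a C in the T stem and are called C-type, and the next 3 share a T there and are called T-type.
C-type, D loop T: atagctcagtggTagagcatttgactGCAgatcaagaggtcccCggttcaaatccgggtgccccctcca
C-type, D loop C: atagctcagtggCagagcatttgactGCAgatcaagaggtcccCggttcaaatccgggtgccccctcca
C-type, D loop base missing: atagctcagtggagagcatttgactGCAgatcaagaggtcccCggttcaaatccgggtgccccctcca
T-type, D loop T: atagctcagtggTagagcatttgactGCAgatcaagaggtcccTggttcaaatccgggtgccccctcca
T-type, D loop C: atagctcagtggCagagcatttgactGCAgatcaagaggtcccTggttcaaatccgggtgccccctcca
T-type, D loop base missing: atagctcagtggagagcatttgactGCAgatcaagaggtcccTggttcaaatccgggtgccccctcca
Positions are counted from 1 at the 3' end, so that the T stem difference is C26T and the D loop difference is T57C, each with the base of the leading read first. In the T stem of the C-type this base faces a G, and in the T-type the T faces the same G, which is a wobble pair in RNA.

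The label was then checked against the reads. Of the 42 sequences, 37 held the anticodon loop with 4 bases of its stem on each side (ttgactgcagatcaa, searched on the read strand), and none of the 2979 sequences under other labels did. These 37 are called tRNA-like, with 20 C-type and 17 T-type sequences. The other 5 lacked that loop and were 89 to 95 nt long. They are the only sequences of at least 89 nt in the whole table. Their last 28 nt are those of the C-type T arm and acceptor end and follow a head of 61 to 67 nt. As background, that head reads like the 3' part of 5S ribosomal RNA, a match that was not computed here. The leading read of the 5 is shown with the part it shares with the C-type in capitals, since these reads bear on both length and label.
Long read without the anticodon loop: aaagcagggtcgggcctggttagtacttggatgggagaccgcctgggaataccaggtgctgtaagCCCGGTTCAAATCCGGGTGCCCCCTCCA
Only 4 of the 5 held the bases GCA at all, and there in the head. A stretch of the head (gggtcgggcctgg) occurred in these 5 reads and in no other sequence, whether under the Cys label or another. How these reads arose was not tested. They are counted under the authors' label in values for Cys-GCA as a whole, unless stated. Values for tRNA-like, C-type and T-type reads leave them out, and their own level and share are given below.

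Depth differed between libraries, and His-GTG, a histidine tRNA, held 81.7% to 89.1% of the cytoplasmic reads in each. Library totals recovered from the RPM values ran from 3324546 to 7096801 reads, of which 1877927 to 4770871 were listed as cytoplasmic. Cys-GCA had 2425 to 6144 reads per library and ranked 12th of 38 anticodons by mean RPM. With 1 library per stage no difference has a replicate check. All intervals are exact 95% intervals (Clopper-Pearson for shares, the binomial split of reads for ratios). The ratios themselves have 1 RPM added to each level and their intervals do not. For rare reads a ratio can therefore lie near the edge of its interval or outside it. The libraries carry no stated molecular identifiers and PCR copies are not separate molecules, so all intervals and floors cover counting error only.

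By share and by RPM, the level of Cys-GCA was highest at 1cell and sphere and lowest at 24hpf. It stood at 610 RPM in egg, 953 RPM in 1cell, 833 RPM in 256cell, 1043 RPM in sphere, 642 RPM in shield and 394 RPM in 24hpf embryos. As a share of the listed cytoplasmic reads it was 0.0919% in egg (0.0892 to 0.0946), 0.225% in 1cell (0.219 to 0.231), 0.147% in 256cell (0.142 to 0.153), 0.196% in sphere (0.191 to 0.200), 0.0877% in shield (0.0844 to 0.0910) and 0.0508% in 24hpf embryos (0.0488 to 0.0529). In the order of these shares, 1cell led, followed by sphere, 256cell, egg, shield and 24hpf, and egg and shield were the only neighbours whose counting intervals overlapped. In RPM the order began with sphere and shield lay above egg. In such pooled whole-animal RNA, fewer cells with a tRNA and less of it per cell cannot be told apart.

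**Figure D1:**
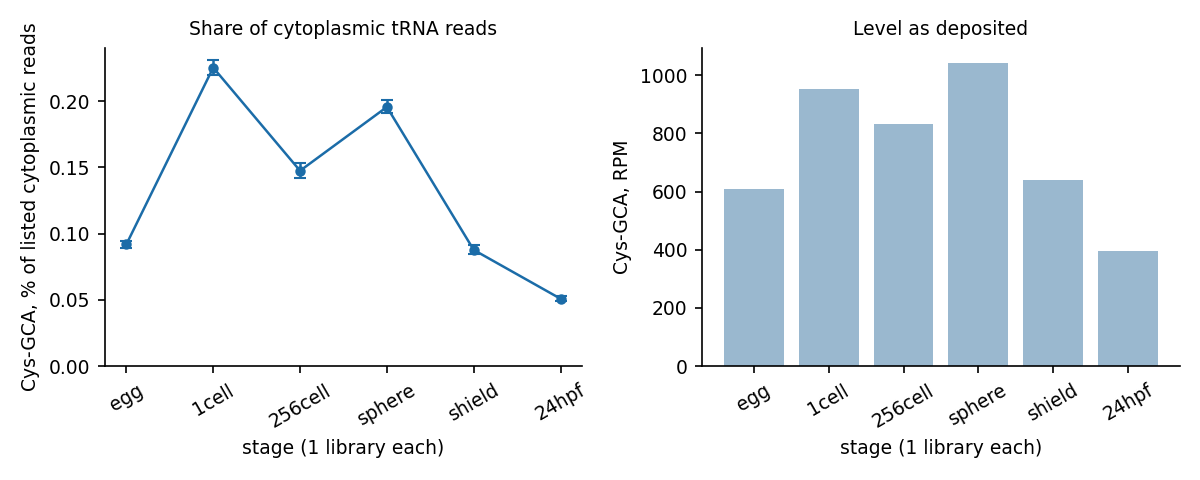
Left, share of Cys-GCA among the listed cytoplasmic tRNA reads (%, y axis) at the 6 stages (x axis, 1 library each) with exact 95% counting intervals; right, the same sum in RPM. The share was 0.0508% at 24hpf and 0.225% at 1cell.

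Ratios between stages were taken on shares, on the log2(RPM + 1) scale. At 24hpf Cys-GCA had 394 RPM, against 610 RPM in egg, a log2 ratio of -0.85 (counting interval -0.93 to -0.78). This is short of the 2-fold size at which anticodons were counted. Of the 35 anticodons that averaged 10 RPM or more, 42.9% were at least 2-fold lower at 24hpf than in egg and 20% at least 2-fold higher, and their median was -0.66. Cys-GCA thus lay near the middle, with 16 of the 35 below it. How many anticodons counted as higher and lower depended on scaling, which gave 7 and 15 by share, 10 and 9 after median-ratio scaling and 12 and 3 after trimmed-mean scaling. The Cys-GCA ratio was -0.11 under median-ratio scaling but turned to 0.40 under trimmed-mean scaling with egg as the library the others were scaled to. With 24hpf in that place it was also 0.40, while it was -0.92 with 1cell, -0.15 with 256cell, -0.53 with sphere and -0.050 with shield. Those scalings shifted the median of all anticodons by 0.74 and 1.26, so the direction of the Cys-GCA level between 24hpf and egg is not settled by these data.

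By steps on shares, the largest differences lay between 1cell and egg and between shield and sphere, an order that other scalings did not keep. The 1cell share was higher than that of egg by 1.29 (1.24 to 1.35), a step at which 42.9% of anticodons were at least 2-fold higher. The 256cell share differed from that of 1cell by -0.61, where 11.4% of anticodons were at least 2-fold lower, and the sphere share from that of 256cell by 0.41, where 5.71% were at least 2-fold higher. The shield share differed from that of sphere by -1.16 (-1.22 to -1.09), where 22.9% of anticodons were at least 2-fold lower and 4 of 35 lay below Cys-GCA. The 24hpf share differed from that of shield by -0.78, where 34.3% were at least 2-fold lower. The ratio of 1cell over egg was 0.64 in RPM, 0.54 in the share without His-GTG, 0.36 under median-ratio scaling and 0.29 under trimmed-mean scaling, and none of these turned it round. The ratio of shield over sphere was -0.70 in RPM, -0.50 under median-ratio scaling and -0.33 under trimmed-mean scaling. The ratio of 24hpf over shield was -0.70 in RPM, -0.31 in the share without His-GTG and -0.12 under median-ratio scaling, and it turned to 0.36 under trimmed-mean scaling.

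The mean of the 3 later stages was set against that of the 3 earlier ones. The log2 difference was -0.60, next to a median of -0.48 over the 35 anticodons, of which 25.7% were at least 2-fold lower and 8.57% higher. The groups overlapped, since sphere lay above egg and 256cell. Without 24hpf the difference was -0.15 and without 1cell -0.28, while without sphere it was -1.12 and without egg -0.93. Under median-ratio scaling it was -0.085, and it turned to 0.10 under trimmed-mean scaling. edgeR's quasi-likelihood test on the recovered reads, which takes different stages as if they were replicates, called 2.86% of the anticodons (Lys-TTT alone, named after its values were seen) and not Cys-GCA.

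Between egg and 24hpf the balance between the T stem types moved far more than the level. This did not hold at every step. The T-type stood at 1.08 times the C-type in egg and 0.699 times in 1cell, where the level by share differed by 1.29 in log2. It stood at 0.550 times in sphere and 0.410 times in shield, where the level differed by -1.16. T-type reads summed to 307 RPM in egg, 373 RPM in 1cell, 414 RPM in 256cell, 349 RPM in sphere, 182 RPM in shield and 33.7 RPM in 24hpf embryos. C-type reads summed to 284 RPM in egg, 534 RPM in 1cell, 386 RPM in 256cell, 634 RPM in sphere, 444 RPM in shield and 314 RPM in 24hpf embryos. The types were thus close to equal in egg and at 256cell, and the C-type led at the other 4 stages. The T-type made up 51.9% of the tRNA-like reads in egg (50.4 to 53.4), 41.1% in 1cell (39.8 to 42.4), 51.8% in 256cell (49.8 to 53.7), 35.5% in sphere (34.3 to 36.7), 29.1% in shield (27.4 to 30.9) and 9.69% in 24hpf embryos (8.47 to 11.0). All 3 later libraries lay below all 3 earlier ones, and this share does not depend on the scaling between libraries. The pattern was the reason for looking at Cys-GCA and the types were formed with it known, so no test is given. How often variant shares of other anticodons part between these stages in the same way was not counted.

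**Figure D2:**
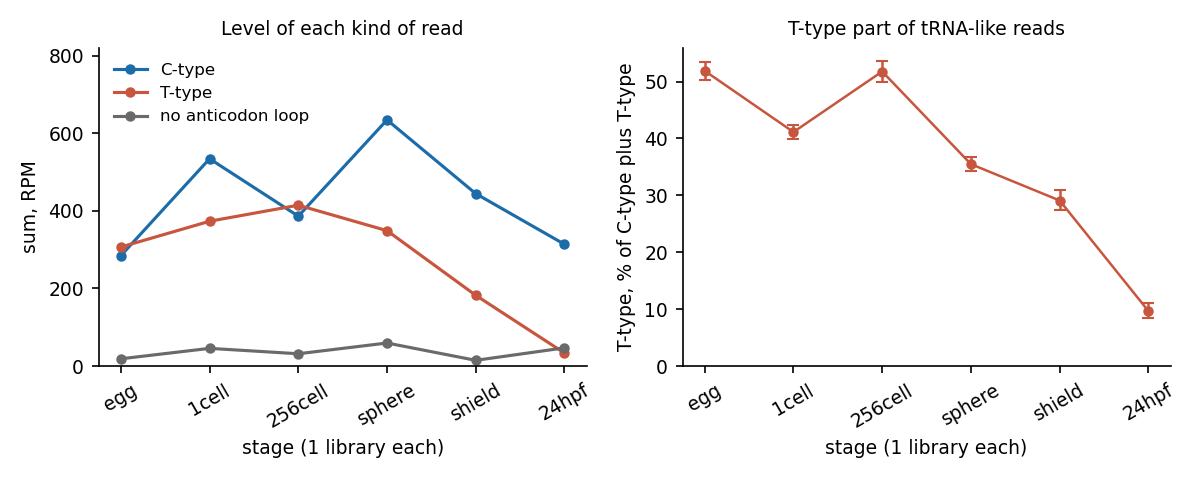
Left, summed RPM (y axis) of C-type reads, T-type reads and the long reads without the anticodon loop at the 6 stages (x axis, 1 library each); right, T-type reads as a percentage of C-type plus T-type reads, with exact 95% counting intervals. The T-type share was 9.69% at 24hpf and 51.9% in egg.

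At 24hpf the T-type had 33.7 RPM, against 307 RPM in egg, a log2 ratio of shares of -3.37 (-3.62 to -3.21). The C-type had 314 RPM at 24hpf, against 284 RPM in egg, a log2 ratio of -0.08 (-0.17 to 0.01). These ratios, and those of single reads and groups of reads below, are by share. Another scaling shifts all ratios between the same libraries alike. Trimmed-mean scaling moved that of Cys-GCA as a whole from -0.85 to 0.40. Whether the C-type itself kept its level between egg and 24hpf is thus not settled. The T-type was present at 0.107 times the level of the C-type at 24hpf and at 1.08 times in egg. Between 24hpf and shield alone the T-type differed by -2.49 (-2.75 to -2.30) and the C-type by -0.58 (-0.68 to -0.49). The difference of the T-type share between later and earlier stages was -23.5 percentage points, and -16.0 without 24hpf.

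Single sequences followed the same split. Of the 17 T-type sequences, 16 were at least 2-fold lower at 24hpf than in egg. Of the 20 C-type sequences, 5 were at least 2-fold lower, each with a further substitution, and 3 at least 2-fold higher. The background among the 1913 sequences of the whole table with a mean of at least 10 RPM was 42.3% lower and 12.5% higher. In Cys-GCA 22 of the 42 sequences reached that mean. Of these, all 8 T-type sequences were at least 2-fold lower, with log2 ratios between -4.04 and -1.20. None of the 12 C-type sequences was at least 2-fold lower and 2 were at least 2-fold higher, with log2 ratios between -0.84 and 1.53. These ranges did not overlap. Over all 42 members, 21 were at least 2-fold lower and 5 higher, and no background was taken for sequences below that mean. All these counts, with their background, are by share. They depend on scaling, as those of the anticodons did, and were not taken under other scalings. The types were formed with the values known and many sequences differ only in their start. Their agreement is therefore no separate support for the split.

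The most abundant sequence, the leading C-type read, held 76.5 RPM in egg, 121 RPM in 1cell, 71.3 RPM in 256cell, 113 RPM in sphere, 106 RPM in shield and 89.5 RPM in 24hpf embryos. Its log2 ratio of 24hpf over egg was -0.00 (-0.17 to 0.17). The leading T-type read, which differs from it only by C26T, was second, with 92.4 RPM in egg, 98.3 RPM in 1cell, 108 RPM in 256cell, 73.0 RPM in sphere, 47.2 RPM in shield and 8.62 RPM in 24hpf embryos, a log2 ratio of -3.50 (-4.08 to -3.24). The T-type read thus stood above the C-type read in egg and at 256cell, and below it at the other 4 stages.

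Next in abundance came the C-type read with T57C, which held 24.7 RPM in egg, 47.9 RPM in 1cell, 45.4 RPM in 256cell, 139 RPM in sphere, 71.9 RPM in shield and 18.4 RPM in 24hpf embryos. It was the most abundant Cys-GCA sequence at sphere. The next in order were the leading C-type read starting 1 nt later, at 68 nt, with 48.0 RPM at 24hpf against 42.3 RPM in egg, and the same read extended to 70 nt, with 25.2 RPM at 24hpf against 39.2 RPM in egg. Their log2 ratios of shares were -0.05 (-0.28 to 0.19) for the 68 nt read and -0.84 (-1.15 to -0.57) for the 70 nt read.

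Among the 22 sequences that averaged 10 RPM or more, the highest log2 ratios of 24hpf over egg were those of the C-type read of 67 nt (1.53, with 34.2 RPM at 24hpf against 9.44 RPM in egg), of a long read of 92 nt without the anticodon loop (1.51, with 18.2 against 4.79 RPM) and of the C-type read of 67 nt with T57C (1.46, with 8.13 against 1.83 RPM). The lowest were all T-type, led by the 70 nt read with no other difference at -4.04 (1.95 RPM at 24hpf against 40.6 RPM in egg). The leading T-type read followed at -3.50, and then came the T-type read of 68 nt with the D loop base missing at -3.12 (1.79 RPM at 24hpf against 19.7 RPM in egg).

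Because reads start at different points, the T-type share was taken again within each start. Starts are given in nt from the 3' end of the leading read, counting a missing D loop base as present, and reads with further substitutions were left out. At start 69, which held the most reads, the T-type share was 54.4% in egg, 40.5% in 1cell, 55.3% in 256cell, 35.6% in sphere, 27.5% in shield and 9.60% in 24hpf embryos (7.75 to 11.7). At 24hpf it was 16.0% at start 71, 6.64% at start 70, 10.8% at start 68, 7.72% at start 67 and 10.0% at start 65. The values in egg were 56.6%, 50.0%, 51.1%, 40.7% and 56.4% in the same order of starts. At each of the 6 starts the 24hpf interval lay wholly below the egg interval. The starts divide the same reads, and the types were formed with their values known. The agreement of the starts is therefore no separate support for the split. Start 67 listed 3 C-type sequences and 1 T-type sequence, so its T-type shares lack the T-type reads with a substituted or missing D loop base.

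**Figure D3:**
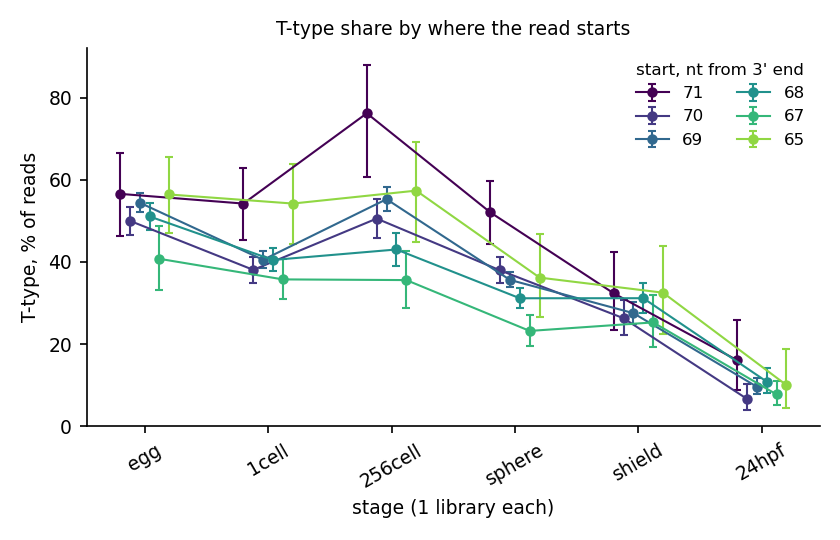
T-type reads as a percentage of C-type plus T-type reads (y axis) at the 6 stages (x axis, 1 library each, points set apart sideways), in separate lines for the 6 places where reads start, with exact 95% counting intervals. Each line lies between 6.64% and 16.0% at 24hpf and between 40.7% and 56.6% in egg.

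The D loop base showed another course, with its extreme at sphere. Reads were not placed on genes, so whether T57C, the missing base or C26T stand for different gene copies or arose in another way was not tested. T57C reads made up 16.2% of the tRNA-like reads in egg (15.1 to 17.4), 16.2% in 1cell, 20.9% in 256cell, 39.3% in sphere (38.0 to 40.6), 27.8% in shield and 13.6% in 24hpf embryos (12.2 to 15.2). Reads with the base missing stayed between 11.4% at shield and 19.8% at 256cell. The lowest and highest T57C shares thus fell at 24hpf and at sphere.

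Within the C-type, T57C reads made up 16.8% in egg, 19.2% in 1cell, 25.1% in 256cell, 46.1% in sphere (44.5 to 47.7), 31.3% in shield and 13.4% in 24hpf embryos. Within the T-type they made up 15.7% in egg, 11.8% in 1cell, 17.0% in 256cell, 27.0% in sphere (25.1 to 29.0), 19.3% in shield and 15.9% in 24hpf embryos. Sphere was thus the highest stage in both types. The types were close in egg and at 24hpf, where their intervals overlap, and stood furthest apart at sphere. At sphere, C-type reads with T57C had 292 RPM, against 47.8 RPM in egg, a log2 ratio of shares of 2.90 (2.76 to 3.10). C-type reads with the T had 267 RPM at sphere, against 199 RPM in egg (0.74).

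**Figure D4:**
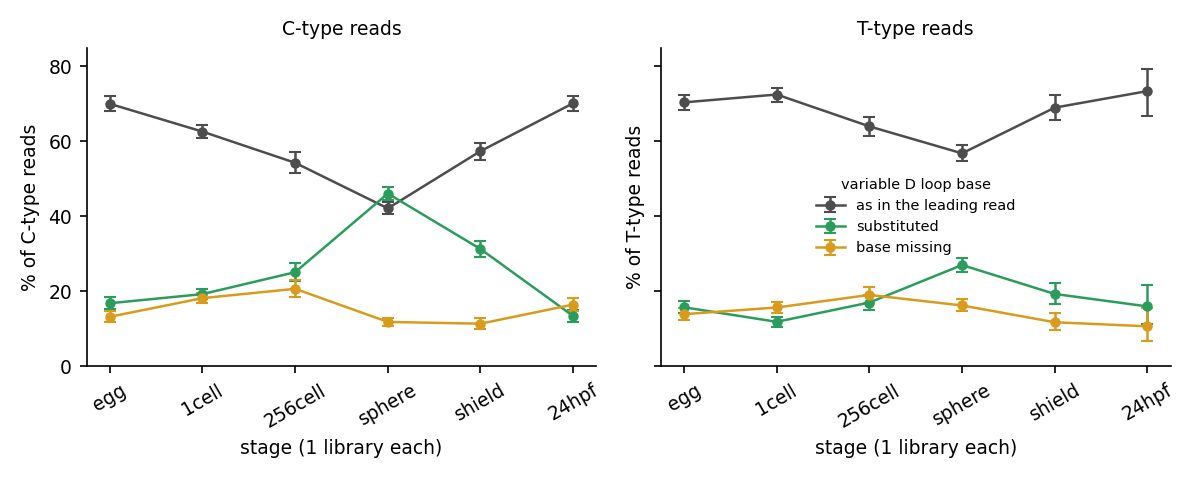
Share of reads (%, y axis) with the variable D loop base as in the leading read, substituted (T57C) or missing, at the 6 stages (x axis, 1 library each), for C-type reads (left) and T-type reads (right), with exact 95% counting intervals. The substituted base is highest at sphere, with 46.1% of C-type and 27.0% of T-type reads.

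Further substitutions were rare and commonest at 1cell. They occurred in 11 tRNA-like sequences, which made up 5.82% of tRNA-like reads in egg (5.13 to 6.57), 10.6% in 1cell (9.76 to 11.4), 5.86% in 256cell, 2.88% in sphere, 1.36% in shield and 0.468% in 24hpf embryos (0.225 to 0.859). Of the 11, 8 had their highest RPM at 1cell and 3 at 256cell. All 11 had reads at each of the first 3 stages and 6 had any at 24hpf. Such counts were not taken over the whole table. The rule for listing a read was not given, so whether these sequences were listed through their 1cell reads was not tested. The 5 sequences without reads at 24hpf are the only members without reads there. A count of 0 at 24hpf allows up to 0.488 RPM (3 reads).

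The only family whose leading read had a further substitution and that held above 1% of all Cys-GCA reads was a T-type with C52T in the D arm. It held 11.3 RPM in egg, 20.2 RPM in 1cell, 23.5 RPM in 256cell, 14.3 RPM in sphere, 4.27 RPM in shield and 0.651 RPM in 24hpf embryos. It was thus lower at 24hpf than in egg, as the other T-type reads were. Reads with further substitutions, C-type and T-type together, were also lower, with a log2 ratio of shares of -3.98 (-5.70 to -3.72). Below 1%, and named after their values were seen, were G14A in the T stem and a read with 4 further changes. G14A, over its 3 sequences with that read included, had 9.44 RPM in egg, 35.9 RPM at 1cell and 0.325 RPM at 24hpf. The read with G12A, G14A, C28T and T68A beside C26T, which turns a C-G pair of the T stem and the T-G pair into T-A pairs, had 0.705 RPM in egg, 12.5 RPM at 1cell and 0.163 RPM at 24hpf, where it was a single read.

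All 42 sequences ended in CCA, so the share of CCA ends was 100% at every stage. The lower bound of the interval was between 99.8% and 99.9%, and the difference between 24hpf and egg was 0 percentage points. These values are fixed by which sequences were listed, so they do not measure how intact the ends were. CCA ends made up 86.1% to 90.4% of all listed cytoplasmic reads, most of which were His-GTG. Of the 38 anticodons, 13 had only CCA-ended sequences. Whether reads without CCA were left out for these anticodons was not tested. All Cys-GCA reads thus share the same 3' end, and the lengths of the tRNA-like ones differ by where they start and by the D loop base.

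No tRNA-like read held the whole 5' strand of the acceptor stem, so lengths here are not those of the whole tRNA. The tRNA-like reads were 65 to 71 nt long. Their mean length was 68.7 nt in egg, 68.6 nt in 1cell, 68.5 nt in 256cell, 68.6 nt in sphere, 68.6 nt in shield and 68.4 nt in 24hpf embryos. Over all Cys-GCA reads it was 71.2 nt at 24hpf and 69.2 nt or more but under 71 nt at the other 5 stages. Over all listed cytoplasmic reads, most of which were His-GTG, it was 62.9 to 63.3 nt. The mean was 1.80 nt longer at 24hpf than in egg over all Cys-GCA reads, while the difference was -0.33 nt over the tRNA-like ones. Reads that start at 67 made up 15.9% of the tRNA-like reads without further substitutions at 24hpf (14.3 to 17.5), against 4.10% in egg (3.50 to 4.76). Those that start at 70 made up 12.7% at 24hpf, against 21.6% in egg, while start 69 held 42.1% at 24hpf and 46.2% in egg. C-type and T-type reads had the same mean length within 0.2 nt at every stage.

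The means with and without the long reads thus differed in sign, and the long reads held 18.9 RPM in egg, 45.8 RPM in 1cell, 31.9 RPM in 256cell, 59.6 RPM in sphere, 15.0 RPM in shield and 47.0 RPM in 24hpf embryos. As a share of Cys-GCA reads they were 3.09% in egg (2.60 to 3.65), 4.80% in 1cell, 3.83% in 256cell, 5.71% in sphere, 2.33% in shield and 11.9% in 24hpf embryos (10.7 to 13.3). At 24hpf their log2 ratio over egg was 1.05 (0.79 to 1.40), while that of the tRNA-like reads was -0.99 (-1.07 to -0.92). With only reads of at least 70 nt kept under every label, the Cys-GCA ratio of 24hpf over egg was 0.64. The total there was all listed cytoplasmic reads of that length, so this value does not share the total of the other ratios. Reads of that length made up 21.9% of Cys-GCA reads in egg and 24.1% at 24hpf. Among the tRNA-like reads alone the direction was the other, with 19.4% in egg and 13.8% at 24hpf.

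**Figure D5:**
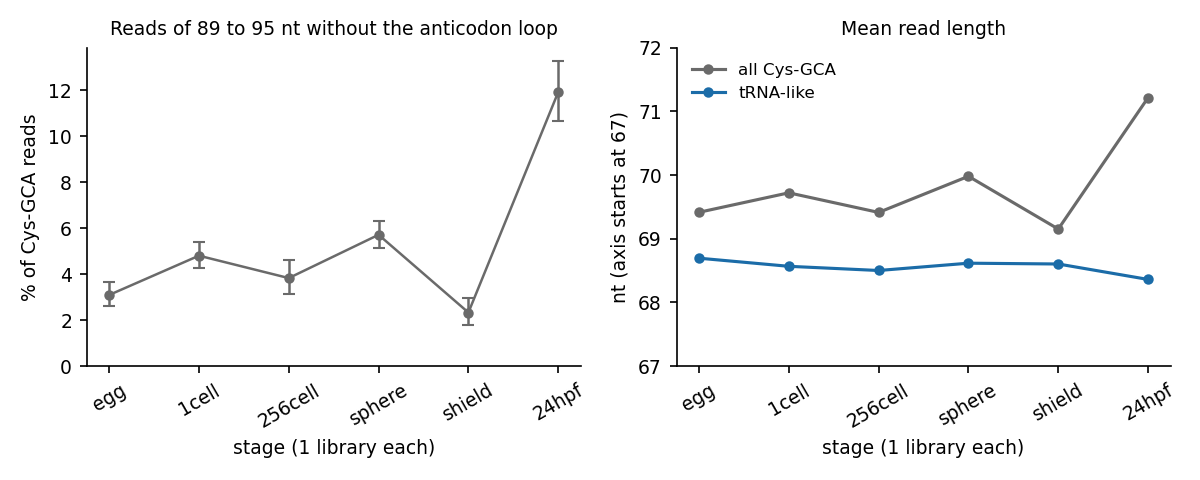
Left, the long reads of 89 to 95 nt without the anticodon loop as a percentage of all Cys-GCA reads (y axis) at the 6 stages (x axis, 1 library each), with exact 95% counting intervals. Right, mean read length in nt (the axis starts at 67) over all Cys-GCA reads and over tRNA-like reads; the lines part most at 24hpf, at 71.2 and 68.4 nt.

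The share of the leading family within Cys-GCA summed up these moves. It held 55.7% of Cys-GCA reads at 24hpf (53.7 to 57.7), against 29.6% in egg (28.3 to 31.0), a difference of 26.1 percentage points. In the stages between it held 29.9% at 1cell, 23.8% at 256cell, 24.9% at sphere and 39.5% at shield. Without the long reads the difference was 32.6 percentage points. Of the Cys-GCA reads 44.7% would have to change sequence to turn the egg mix into the 24hpf mix. The same figure was 15.1% between 1cell and egg and 15.1% between 256cell and egg. Over the 21 anticodons with at least 10 listed sequences the figure between 24hpf and egg ranged from 10.9% to 66.8% with a median of 33.3%, and Cys-GCA was 6th.

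The other tRNAs for sulphur amino acids were set beside it. Met-CAT, which reads internal methionine codons, had 2.93 RPM at 24hpf, against 10.3 RPM in egg, a log2 ratio of shares of -1.75. iMet-CAT, the initiator, had 72.1 RPM at 24hpf, against 246 RPM in egg, a ratio of -1.98. Both were past the 2-fold size and Cys-GCA was not, so 2 of the 3 were lower, next to the 42.9% of all anticodons given above. This is by share, and under trimmed-mean scaling only 3 of all anticodons were that much lower. Met-CAT rested on 73 reads in egg and 18 at 24hpf. Met-CAT was 2.42 higher at 1cell than in egg, while iMet-CAT was at -0.26 there and Cys-GCA at 1.29.

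By the profile of log2 shares over the 6 stages, each centred on its own mean, Ser-AGA was the nearest anticodon, at a root-mean-square distance of 0.13. Ser-TGA followed at 0.18 and Pro-GGG at 0.19, while His-GTG was at 0.77. These 3 had, like Cys-GCA, their highest share at 1cell. They were chosen for a like profile, so this is no separate finding. Other anticodons also had their highest share at 1cell, and how many was not counted. The 6 points share libraries and the same total, most of which is His-GTG. In only 1 of 9 Ser-AGA sequences and 0 of 2 Ser-TGA sequences did the labelled anticodon bases occur, so those labels could not be checked on the reads.

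The mitochondrial cysteine tRNA, trnC, serves translation inside mitochondria and comes from the mitochondrial genome. It had 192 RPM in egg, 642 RPM in 1cell, 532 RPM in 256cell, 343 RPM in sphere, 152 RPM in shield and 41.6 RPM in 24hpf embryos. In RPM of the same library, Cys-GCA stood at 3.18 times trnC in egg, 1.48 times at 1cell and 9.47 times at 24hpf. The listed mitochondrial reads as a whole numbered 954070 in egg, 1432257 in 1cell and 241206 in 24hpf embryos. As a share of them, trnC was 0.143% in egg, 0.273% in 1cell and 0.106% in 24hpf embryos. The ratios to trnC thus also follow the mitochondrial part of each library.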

How the data were processed

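Per the labels' protocols, RNA of 60 to 120 nt was cut from a gel (60 to 100 nt in the sample descriptions). Per the submitters' processing notes, cutadapt 3.4 and Bowtie2 2.4.2 were used with genome build GRCz11. Settings, the rule for listing a read and the handling of shared reads were not given in the sources used here. RPM, reads scaled to library size, is the unit of both tables as deposited. All values of a library were multiples of the value of 1 read (100% within 0.01 reads), which gave totals and reads. A separate check found no such step in the 1cell column, so the 1cell reads and intervals are less certain than the others. Gene positions were not used here.

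RPM values were summed per anticodon label or form, a pseudocount of 1 RPM was added, and sums were divided by the library's cytoplasmic total. The log2(RPM + 1) scale understates differences of rare reads. The 35 of 38 anticodons averaging 10 RPM or more were compared, and a log2 size of 1 was counted. Cys-GCA reads were aligned to the leading read at their shared 3' end. Of single reads, the 5 most abundant, the 3 highest and 3 lowest past 10 RPM and families above 1% were named; of other anticodons, the 3 nearest profiles, the sulphur list, His-GTG and trnC. edgeR 4.0.16 on the recovered reads, with different stages taken as if replicates, was an alternative. The recovery of library totals, the ratio intervals and the edgeR calls were checked on simulated data. The libraries simulated for edgeR were true replicates, so that check does not cover different stages taken as replicates. The members, lists and types were chosen with earlier results of these data known, and the types after the values were seen. Python 3.11.15 and scipy 1.17.1 were used.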

Additional observations from a re-analysis of the deposited data

How the results depend on the processing

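No paired analysis was possible because each stage has 1 library. The level of Cys-GCA depends on scaling, and the T-type share does not. In the order 24hpf over egg, later over earlier stages, and the 5 steps from egg to 24hpf, the log2 ratios were -0.63, -0.29, 0.64, -0.19, 0.32, -0.70 and -0.70 in RPM. In the same order they were -0.11, -0.085, 0.36, -0.059, 0.21, -0.50 and -0.12 under median-ratio scaling. Under trimmed-mean scaling they were 0.40, 0.10, 0.29, -0.041, 0.13, -0.33 and 0.36. With reads of at least 70 nt only, in the total as well, they were 0.64, -0.063, 1.05, 0.32, -0.045, -1.06 and 0.39. In the share without His-GTG the first 3 steps and the last were 0.54, -0.10, 0.13 and -0.31, and with CCA-ended sequences only the first step was 1.36. Trimmed-mean scaling, chosen again after seeing the data, gave 24hpf over egg as 0.40 with egg or 24hpf as its reference library, and as -0.92, -0.15, -0.53 and -0.050 with 1cell, 256cell, sphere and shield. With 256cell in the place of egg the ratio was -1.53. Without the 5 long sequences, a setting chosen after seeing the data, it was -0.99, the later-over-earlier difference was -0.64, the length difference was -0.33 nt and the leading family moved by 32.6 percentage points.

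Leaving out each library in turn gave a later-over-earlier difference of -1.12 to -0.15 for the level and -28.9 to -16.0 percentage points for the T-type share. With edgeR the level difference was 0.10. It called 1 of 35 anticodons (2.86%), Lys-TTT, and 7 had an unadjusted p under 0.05. The leading family moved by 31.8 points with 256cell in the place of egg. The length difference was -0.31 nt within that family and 1.30 nt with sequences of at least 10 RPM. Anticodons higher by 2-fold or more at 24hpf than in egg, 7 as reported, were 12 with trimmed-mean scaling, 4 with CCA-ended sequences, 4 past 100 RPM and 3 with 256cell. Those lower, 15 as reported, were 9 under median-ratio scaling, 3 under trimmed-mean scaling, 4 with reads of at least 70 nt and 9 past 100 RPM. The causes were not tested, except that fewer anticodons pass 100 RPM. No Cys-GCA sequence lacks CCA, so the leading family could not be taken among such reads. Pseudocounts of 0.1 and 10 RPM and overlaps of 40 and 55 nt left the Cys-GCA values within their counting intervals. At 24hpf the 207 T-type reads limit the precision of their D loop shares.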
